A study of Paracentrotus lividus with 19 samples.

Results

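Transcript counts of sea urchin embryos exposed to the zinc salt ZnSO4 were set against those of unexposed embryos. The comparison used 8 of the 19 libraries of the series, 4 with ZnSO4 and 4 unexposed controls, taken by the treatment named in each title, and it is described across all 63389 features of the count table. Embryos of Paracentrotus lividus were exposed from the fertilized egg for 24 h, and about 6000 of them were pooled for the RNA of each library, so a library averages all cell types of many embryos. ZnO particles were given at 1e-05 M zinc, per the labels, which also give 0.8 mg per L. ZnSO4, a salt with 7 waters, was given at the equivalent zinc concentration. Controls received no metal, and the labels name no genetic change in any group. Other libraries held embryos exposed to ZnO particles (3), to the iron salt FeCl3 (4) or to Fe2O3 particles (4). The iron concentration of the Fe2O3 particles, 5e-05 M, set that of the salt, and the labels also give 4 mg per L.

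Every title also names a set, F1, F2 or F3, with 2 control and 2 ZnSO4 libraries in F1 and 1 of each in F2 and in F3. What a set stands for is not explained, and no label says whether cultures were separate. All p-values therefore refer to the spread among the 19 libraries alone, and this spread may be technical. Values per library are CPM (counts scaled to a common library size, with TMM factors), listed in the order F1 replicate 1, F1 replicate 2, F2 and F3. Log2 changes are ZnSO4 minus control over the sets, each with its standard error, and "called" means an adjusted p under 0.05. Effects within F2 or F3 compare 1 library with 1, and their standard errors borrow spread from F1 and from other features.

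Zinc is an essential metal that becomes toxic in excess. Animal cells hold free zinc low with metallothioneins, small cysteine-rich proteins that bind zinc and other metals and whose genes are turned on by zinc, and with membrane transporters that move zinc across membranes. At this age the sea urchin embryo has usually formed a gut tube, its skeletogenic cells have begun the calcite skeleton, and its ectoderm has been divided into oral, aboral, ciliary band and apical plate territories. Zinc ions are a classical agent for animalizing sea urchin embryos, which enlarges ectodermal territories at the expense of the gut.

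The 8 libraries held 26108499 to 30456064 counts. The paired libraries of F1 differed by more than counting noise, since chi-square per degree of freedom came to 5.65 for the controls and 7.37 for ZnSO4. All libraries were kept as separate samples, although this cannot show that a pair came from separate cultures. Markers of the territories of a gastrula were present in the controls. The skeletal matrix feature SM37.1.2 stood at 291 ± 10.9 CPM (SD, n = 4), the gut feature ENDO16.3.3 at 229 ± 37.9 CPM, the apical plate feature ANKAT-1.1.2 at 62.3 ± 10.6 CPM and the arylsulfatase feature ARS.2.5 of the ectoderm at 2194 ± 323 CPM. Markers named PKS, GCM, MSP130, SM50 and SPAN were not analysed here. The F1 ZnSO4 pair stood apart from the other ZnSO4 libraries in several genes given below, and results are therefore given by set and, where they change, without F1.

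With ZnSO4, 3405 of 62865 features tested were called (5.42%), of which 1477 were higher (2.35%) and 1928 lower (3.07%). Most changes were small, with a median size of 0.63 on the log2 scale among features called higher and 0.64 among those called lower. A change of at least 1 was reached by 362 features called higher and 518 called lower, and one of at least 3 by 29 and 37. The features called higher together took 50002 to 55820 CPM in the controls and 76371 to 88530 CPM with ZnSO4, and those called lower took 85589 to 98475 CPM and 59301 to 67776 CPM. These sums describe features chosen by the same contrast. Without F1 the count was 1981 features, 1336 of them among the 3405. With each F1 pair summed into a single library it was 1707. Spread was estimated over all 19 libraries, and a fit to the 8 libraries alone called 2297 features, 2219 of them among the 3405.

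Calls were more frequent at higher levels. Of features with a mean log2 CPM of at most 0, 0.781% were called, against 19.4% of those above 6, and the median standard error fell from 0.436 to 0.0709 between these bands. Features that carry a gene name were called in 16.7% (96 of 574), those with a LOC identifier in 9.01% and numbered contigs in 4.49%. Counts of called list members below stand beside this 16.7% and the 5.42% called over all features tested. After the filter, 1 feature with at most 3 counts over the 4 control libraries was tested and it was not called, while 8 features with at most 3 counts over the 4 ZnSO4 libraries were called lower.

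**Figure D1:**
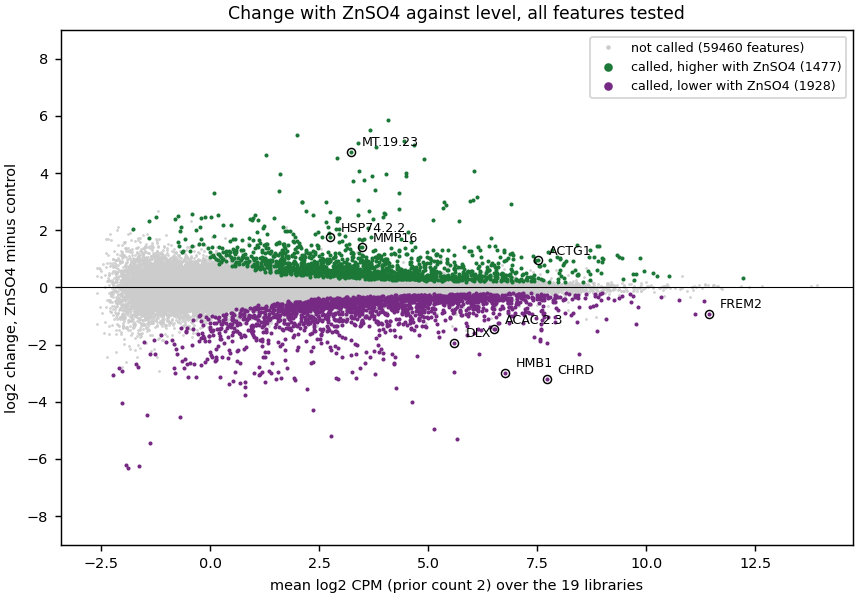
Log2 change with ZnSO4 (ZnSO4 minus control) against the mean log2 CPM over 19 libraries, 1 point per feature tested, with calls at an adjusted p under 0.05 coloured and 9 features circled. The 1477 green and 1928 purple points reach smaller changes as the level rises, and MT.19.23 (4.76) and CHRD (-3.20) lie far from the line at 0.

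All 23 features named MT rose with ZnSO4, and they split into 4 that rose by a log2 change of 3.91 to 4.76 and 19 that rose by 0.91 to 1.79. The split was made after the values were seen. The 4 features with the larger rise, MT.2.23, MT.17.23, MT.19.23 and MT.23.23, were scarce in controls, and summed to 13.6, 12.0, 7.68 and 15.9 CPM. With ZnSO4 they summed to 300.2, 255, 126 and 219 CPM, so that all exposed libraries lay above all controls. The 19 others carried most metallothionein transcripts in both groups, at 5689, 5695, 3767 and 6827 CPM in controls and 11185, 10524, 11687 and 12461 CPM with ZnSO4, again without overlap.

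MT.2.23 had 4.71, 3.53, 2.70 and 3.50 CPM in controls and 87.0, 74.0, 35.3 and 43.6 CPM with ZnSO4, a log2 change of 4.00 ± 0.14 (SE, adjusted p = 4.66e-15). MT.12.23, one of the abundant features, had 566, 477, 518 and 1102 CPM in controls and 978, 809, 1637 and 1894 CPM with ZnSO4, a change of 1.02 ± 0.12 (adjusted p = 5.44e-06). Its F3 control lay above both F1 ZnSO4 libraries, so the groups overlapped, although ZnSO4 was higher in every set. Every MT feature was higher with ZnSO4 in every set, against 8.4% of all features tested, and in 10 of 23 the 4 ZnSO4 libraries lay above the 4 controls, against 0.891% of all. The share of reads each MT feature received may reflect how the counting step divided reads between near-identical features, and the sum of their counts rose by 1.12 ± 0.08 (adjusted p = 4.32e-09).

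The rise of the MT sum was 0.96 in F1, 1.65 in F2 and 0.89 in F3. The F2 control had the lowest MT sum of the controls, while the F2 ZnSO4 library lay within the range of the other ZnSO4 libraries. The effect differed between sets for 9 of the 23 MT features in both models of set differences described below. S39AE, named for the zinc importer ZIP14, was the only zinc transporter among the lists and fell. It had 32.7, 30.3, 36.7 and 30.1 CPM in controls and 26.1, 21.7, 24.9 and 23.8 CPM with ZnSO4, all below the controls, with a log2 change of -0.42 ± 0.09 (adjusted p = 0.0032).

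CHRD, HMB1 and DLX, all of the ectoderm patterning list, had the largest falls among features with a gene name that are described here. Of 11 features tested in this list, 5 fell and 1 rose, with a median log2 change of -1.20, beside 0.010 for all features tested. In bulk libraries, fewer cells of a type and less RNA per cell cannot be told apart. CHRD encodes chordin, an extracellular inhibitor of BMP signals that is made in the oral ectoderm. Its transcripts stood at 309, 289, 230.1 and 281 CPM in controls and at 4.29, 5.43, 79.1 and 64.3 CPM with ZnSO4. Both F1 ZnSO4 libraries lay under 6 CPM, far below those of F2 and F3, and all 4 lay below all controls.

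The log2 change of CHRD was -3.20 ± 0.56 over the sets (adjusted p = 0.000633) and -5.95 ± 0.11 in F1, -1.54 ± 0.12 in F2 and -2.12 ± 0.12 in F3. The difference between sets passed the test in both models (adjusted p = 6.27e-17 with all set-by-treatment terms and 2.15e-06 with such terms for ZnSO4 only). Without F1 the change was -1.85, adjusted p = 0.000278.

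HMB1 had 175, 180.2, 94.3 and 180.3 CPM in controls and 21.3, 20.5, 18.2 and 17.2 CPM with ZnSO4, and changed by -2.98 ± 0.21 (adjusted p = 1.86e-09). The exposed libraries were close to each other and far below every control. DLX, a homeobox gene, had 73.6, 82.6, 39.1 and 71.9 CPM in controls and 16.4, 16.5, 18.3 and 14.4 CPM with ZnSO4, and changed by -1.94 ± 0.30 (adjusted p = 0.000158). The ZnSO4 libraries again sat together, below the lowest control in F2. HMX, another homeobox gene, fell by 1.24 on the log2 scale (adjusted p = 0.00162), from 124, 122.98, 109 and 118 CPM in controls to 34.6, 38.4, 79.8 and 53.2 CPM, with the F2 exposed library nearest to the controls. Without F1 the change of HMX was -0.76, adjusted p = 0.023. Summing each F1 pair into a single library ended its call (-1.08, adjusted p = 0.0593).

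UNIV, named for univin, a TGF-beta family ligand of the Nodal pathway, rose by 0.38 ± 0.07 (adjusted p = 0.00119), from 102, 108, 83.3 and 101 CPM in controls to 122.81, 131, 110.2 and 147 CPM. ZnSO4 was higher within every set, and all 4 exposed libraries lay above all controls. ARS.3.5, a minor arylsulfatase feature, was called lower (-1.19 ± 0.34, adjusted p = 0.0371), but it had 4.64, 4.84, 61.3 and 3.02 CPM in controls and 3.06, 3.37, 7.74 and 2.75 CPM with ZnSO4, so the F2 pair held the largest difference (-0.56 in F1, -2.98 in F2 and -0.14 in F3). Its call ended when any 1 of 4 libraries was left out, with an adjusted p of up to 0.203 without control replicate 3. The arylsulfatase feature with most counts, ARS.2.5, was not called over the sets (-0.33 ± 0.12, adjusted p = 0.136).

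**Figure D2:**
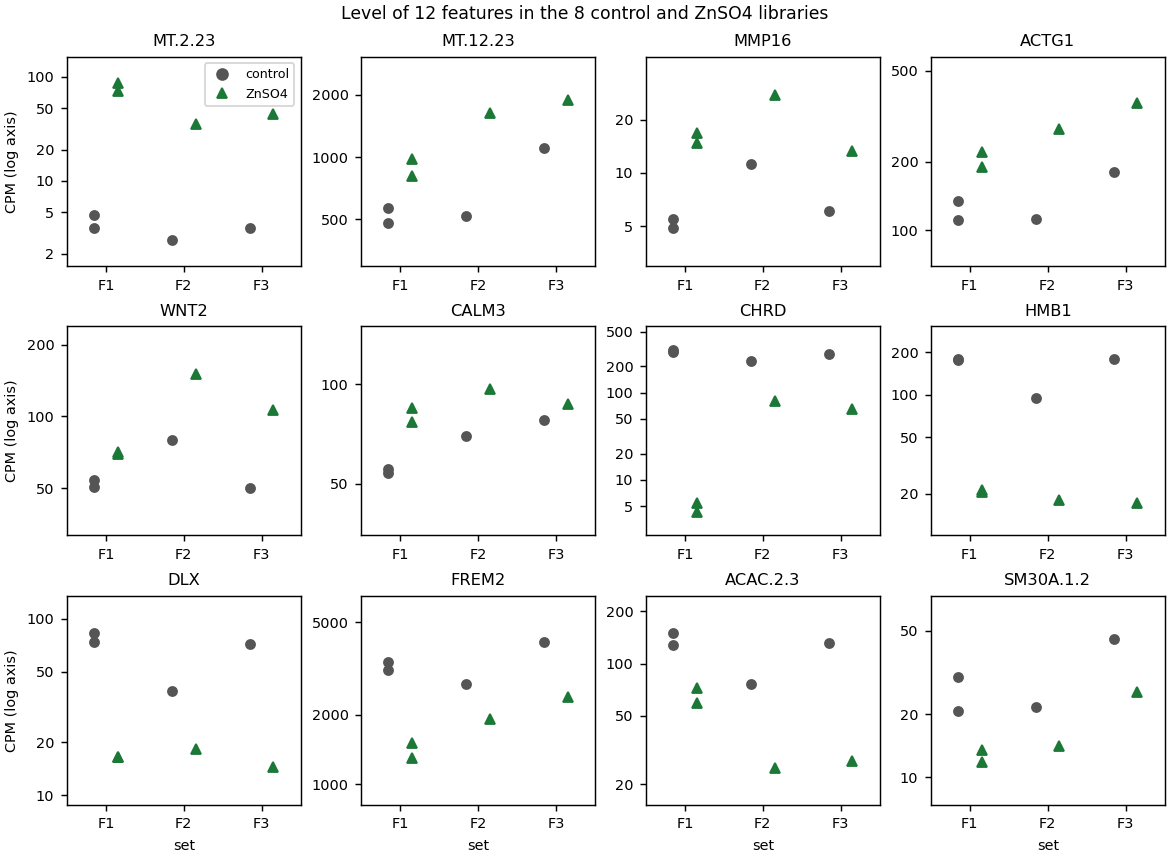
Level in CPM (log axis) of 12 features in the 8 control (circles) and ZnSO4 (triangles) libraries by set, 1 point per library. ZnSO4 lies above control within every set for MT.2.23, MT.12.23, MMP16, ACTG1, WNT2 and CALM3 and below it for the other 6, and the F1 ZnSO4 libraries of CHRD stand far below those of F2 and F3.

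Among features of the skeleton and of FGF signalling, 7 of 17 tested were called lower and 2 higher (median -0.18), beside 16.7% called among features with a gene name. The list median was -0.32 in F1, -0.06 in F2 and 0.02 in F3. SM30 and SM30A encode spicule matrix proteins that are embedded in the calcite skeleton. SM30A.1.2 had 20.7, 30.3, 21.6 and 45.8 CPM in controls and 13.5, 11.9, 14.1 and 25.5 CPM with ZnSO4, and changed by -0.86 ± 0.13 (adjusted p = 0.000107). The exposed library was lower in every set, but that of F3 lay within the range of the controls. SM30 had 10.1, 15.4, 9.86 and 20.6 CPM in controls and 10.4, 8.06, 6.37 and 11.8 CPM with ZnSO4, and changed by -0.60 ± 0.13 (adjusted p = 0.00594). SM30A.2.2 (-0.57) and SM29 (-0.24) were also called lower, and their calls ended without any 1 of 3 and of 7 libraries respectively (adjusted p up to 0.0965 without control replicate 2 and 0.156 without ZnSO4 replicate 2). Without F1 SM29 was not called either (-0.15, adjusted p = 0.563).

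Other skeletal matrix features were not called. PM27 changed by 0.22 ± 0.07 (adjusted p = 0.084), SM37.1.2 by 0.18 ± 0.06 (0.132) and the 3 SM41 features by 0.17 to 0.27. The 3 features of FGFR, the receptor for fibroblast growth factors, were called lower and their sum changed by -0.45 ± 0.09 (adjusted p = 0.00203). FGFR.1.3 had 109, 109.8, 93.6 and 137 CPM in controls and 73.2, 77.4, 77.1 and 106 CPM with ZnSO4. FGFRL1, a related receptor that lacks the kinase domain, rose as a sum by 0.47 ± 0.11 (adjusted p = 0.011). FGFRL1.1.2 had 20.6, 21.0, 17.2 and 24.5 CPM in controls and 35.9, 37.5, 18.8 and 29.98 CPM with ZnSO4, and changed by 0.82 in F1, 0.14 in F2 and 0.29 in F3. With F1 left out, neither FGFR.1.3 (-0.33, adjusted p = 0.0739) nor FGFRL1.1.2 (0.21, adjusted p = 0.402) was called, and when 1 of 2 libraries was left out the call of FGFRL1.1.2 ended too, with an adjusted p without ZnSO4 replicate 2 of 0.0522.

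The ZnSO4 effect differed between sets for 2356 features (3.75%), of which 1601 were not called over the sets. This test took its residual spread from the F1 pairs alone, with 4 degrees of freedom. F1 holds 2 control and 2 ZnSO4 libraries and F2 and F3 hold 1 of each, so comparisons with F1 have more power than F3 against F2. A model with set terms for ZnSO4 only, with 10 residual degrees of freedom, called 2367, of which 1702 were shared, and features named here as differing passed both unless stated. In simulated counts with a change in F1 alone, 24 of 71 calls of the first model were false, and 9 of 77 of the second. There, log2 changes of 0.5, 1 and 2 in size were given to 67, 67 and 66 of 62641 features. The real counts gave far more calls, so these shares are no estimate for them. Among the 1702, the effect was largest in size in F1 for 1086, in 703 of them as a lower value. F2 and F1 differed in 2110 features of the first model and F3 and F1 in 1593, while F3 and F2 differed in 158.

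Genes of the endoderm were lower with ZnSO4 in F1. All 6 features of the endoderm and gut list differed between sets, and the list's median change was -1.55 in F1, 0.24 in F2 and -0.08 in F3. BLIMP1KROX, a zinc-finger transcription factor of the endomesoderm, had 519.5, 565, 443 and 549.6 CPM in controls and 66.9, 63.05, 408 and 653 CPM with ZnSO4. The F1 exposed libraries were far below all others and that of F2 lay just below the lowest control and that of F3 above the highest. Its change was -3.06 ± 0.08 in F1, -0.12 ± 0.10 in F2 and 0.25 ± 0.10 in F3, and it differed between sets (adjusted p = 7.19e-17 and 2.12e-17 in the models above).

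GATAE, a GATA factor of the endomesoderm, had 68.1, 77.9, 49.1 and 80.2 CPM in controls and 22.1, 24.4, 73.3 and 106 CPM with ZnSO4. It fell within F1 (-1.65, adjusted p = 2.72e-13), and its change was 0.58 in F2 and 0.41 in F3. ENDO16 encodes a secreted protein of the gut. ENDO16.3.3 had 187, 212, 245 and 274 CPM in controls and 65.0, 71.0, 293 and 256 CPM with ZnSO4, a change of -1.55 ± 0.08 in F1, 0.26 ± 0.11 in F2 and -0.09 ± 0.11 in F3. The other ENDO16 features showed the same order of sets. EVE, a homeobox gene of the vegetal embryo, had 104, 103, 209.6 and 124 CPM in controls and 47.5, 56.3, 179 and 106 CPM with ZnSO4, and was the only feature of this list called over the sets (-0.59 ± 0.11, adjusted p = 0.0015). It lay lower in every set, but without F1 its change was -0.24, adjusted p = 0.17. ARS.2.5 of the ectoderm also fell within F1 (-0.77, adjusted p = 1.15e-09) and changed by 0.16 in F2 and -0.01 in F3.

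Apical plate features showed the opposite order of sets. ANKAT-1.1.2, an ankyrin-repeat gene of the apical plate, had 61.1, 77.4, 53.2 and 57.7 CPM in controls and 71.9, 73.9, 9.29 and 2.58 CPM with ZnSO4. Both F1 exposed libraries lay within the range of the controls, whereas those of F2 and F3 lay far below it. Its change was 0.07 ± 0.10 in F1, -2.52 ± 0.16 in F2 and -4.48 ± 0.19 in F3, with an adjusted p for the difference between sets of 1.1e-14 and 1.62e-14. NK2.1, a homeobox gene of the same territory, had 12.8, 17.6, 14.6 and 17.2 CPM in controls and 17.0, 19.2, 5.41 and 6.61 CPM with ZnSO4. Its change was -1.4 in F2 and -1.4 in F3, and it was not called within F1 (0.25, adjusted p = 0.32). Over the sets neither was called.

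ERG features also differed by set. ERG.1.2, an ETS transcription factor of the mesoderm, had 59.8, 64.0, 72.13 and 71.7 CPM in controls and 60.7, 60.7, 109.5 and 117 CPM with ZnSO4. It changed by 0.60 in F2, 0.71 in F3 and -0.03 in F1. The complement gene C3 was not called over the sets (0.38 ± 0.11, adjusted p = 0.0581), nor was a difference between sets (adjusted p = 0.561). Beside these differences, the median change of 6 late gastrula features (ENDO16 and SM30 genes) was -1.24 in F1, -0.20 in F2 and -0.38 in F3, and that of 6 blastula protease features (BP10) was 0.81 in F1, 1.76 in F2 and 0.62 in F3. The summed BP10 counts did not rise in every set, with changes of -0.38 in F1, 1.73 in F2 and -0.08 in F3. The part of embryo stage in the set differences was not tested.

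**Figure D3:**
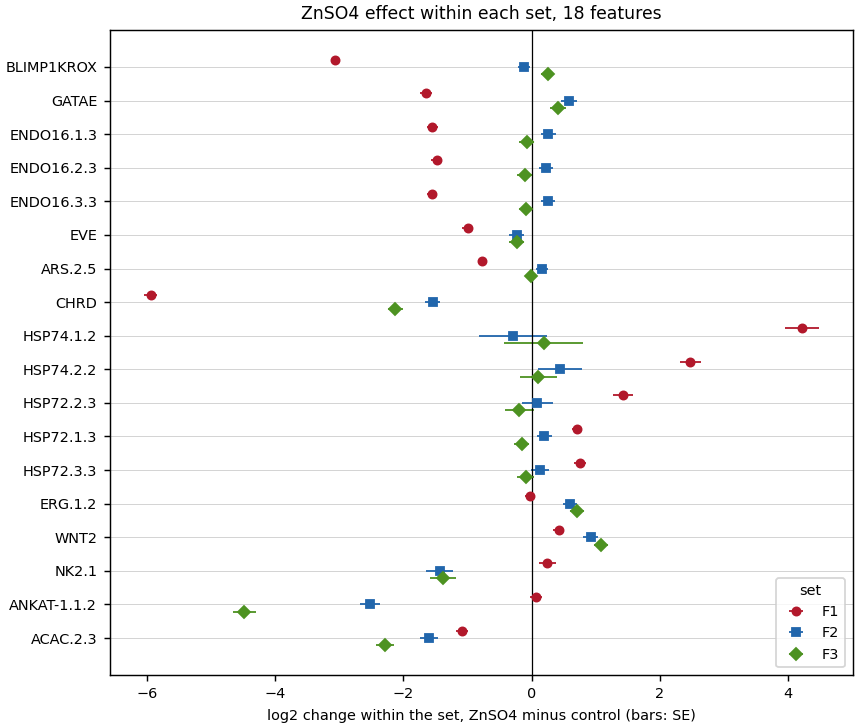
Log2 change with ZnSO4 (ZnSO4 minus control, x axis, bars are SE) within F1, F2 and F3 for 18 features on the y axis. F1 stands apart from F2 and F3 for the endoderm features and the HSP features, as in BLIMP1KROX (-3.06 against -0.12 and 0.25), and in the other direction for ANKAT-1.1.2 and NK2.1.

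Heat shock genes rose with ZnSO4 within F1. HSP features encode chaperones that bind unfolded proteins, and 5 of 8 features in the chaperone list were called higher over the sets. HSP74.1.2 had 1.17, 2.15, 1.23 and 0.715 CPM in controls and 30.1, 32.6, 1.00 and 0.814 CPM with ZnSO4. HSP74.2.2 had 5.09, 6.28, 1.47 and 2.78 CPM in controls and 29.97, 33.6, 2.00 and 2.98 CPM with ZnSO4. Both were high in the F1 exposed libraries alone, and those of F2 and F3 lay within the range of the 4 controls. The 5 features differed between sets (adjusted p of 3.93e-06 to 0.00194 with all set-by-treatment terms), and none was called within F2 or F3. Without F1, the log2 change was -0.10, adjusted p = 0.97, for HSP74.1.2 and -0.07, adjusted p = 0.923, for HSP72.2.3, both with the sign turned, and 0.25, 0.01 and 0.01 for HSP74.2.2, HSP72.1.3 and HSP72.3.3.

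HSP72.1.3 had 84.7, 80.0, 37.6 and 77.2 CPM in controls and 132, 138, 43.1 and 69.3 CPM with ZnSO4, and rose within F1 by 0.71 (adjusted p = 1.53e-07). The calls of the 3 HSP72 features over the sets ended without any 1 of 4 to 6 libraries, with an adjusted p of up to 0.187 without ZnSO4 replicate 1. HSP90B1, an endoplasmic reticulum chaperone, and CALRET were not called (-0.05 and 0.14). In the redox list, 1 of 7 features was called higher. It was DUOX1.1.2, a dual oxidase that makes hydrogen peroxide, at 714, 751, 457 and 752 CPM in controls and 779, 823, 656 and 954 CPM with ZnSO4 (0.29 ± 0.07, adjusted p = 0.0167, up to 0.0884 without control replicate 3). The antioxidant enzyme features GPX1 (0.13 ± 0.12) and SODC (0.04 ± 0.08) were not called.

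Of 13 features in the list of matrix and secreted proteases, 3 were called higher and none lower, beside 16.7% called in either direction among features with a gene name. MMP16, a membrane-bound matrix metalloproteinase with zinc in its active site, had 5.47, 4.87, 11.3 and 6.12 CPM in controls and 16.8, 14.8, 27.6 and 13.3 CPM with ZnSO4. It rose by 1.40 ± 0.10 (adjusted p = 4.08e-09), in every set and without overlap of the groups. BP10, the blastula protease of the astacin family, is normally transient. BP10.3.6 had 1.70, 1.81, 1.47 and 1.35 CPM in controls and 4.49, 6.39, 3.11 and 4.61 CPM with ZnSO4, and rose by 1.54 ± 0.35 (adjusted p = 0.00849). BP10.2.6 rose by 2.56 ± 0.51 (adjusted p = 0.00229) at levels of at most 1.59 CPM. Without F1 BP10.3.6 was not called (1.43, adjusted p = 0.103). The 4 other BP10 features and the sum of the 6 were not called (0.41 ± 0.41, adjusted p = 0.724).

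ACTG1, a cytoplasmic actin, had 111, 135, 113 and 179 CPM in controls and 189, 221, 278 and 361 CPM with ZnSO4, a rise of 0.96 ± 0.12 (adjusted p = 1.7e-05), with all exposed libraries above all controls. ACT1.1.2 (0.47 ± 0.12, adjusted p = 0.0224) and PROF.2.2, a profilin that binds actin monomers (0.26 ± 0.06, 0.0101), were also called, and of the 10 features of this list 6 were not. The call of ACT1.1.2 ended without any 1 of 5 libraries (adjusted p up to 0.0972 without control replicate 3) and that of PROF.2.2 without 1 of them (0.0595 without control replicate 3). ARC3 fell, from 38.2, 44.3, 15.5 and 23.2 CPM in controls to 18.9, 22.01, 5.44 and 5.26 CPM (-1.32 ± 0.19, adjusted p = 7.37e-05).

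WNT2, a secreted Wnt ligand, had 50.6, 54.0, 79.7 and 50.1 CPM in controls and 69.4, 70.6, 151 and 106 CPM with ZnSO4, a rise of 0.74 ± 0.14 (adjusted p = 0.00153). It was higher in every set, less so in F1 (0.42 in F1, 0.92 in F2 and 1.08 in F3, adjusted p for the difference 0.00464 and 0.00695). None of the other 7 features of the signalling list was called, among them CTNB, named for beta-catenin (-0.11 ± 0.05). The calcium sensor CALM3 had 55.3, 53.8, 69.6 and 78.0 CPM in controls and 84.8, 76.7, 97.0 and 87.4 CPM with ZnSO4 (0.45 ± 0.09, adjusted p = 0.00187), and was not called without F1 (0.32, adjusted p = 0.0815). The sum of the CALMB features rose by 0.21 ± 0.05 (adjusted p = 0.0154), while CALMB.2.3 and CALMB.3.3 were not called without F1 (adjusted p = 0.103 and 0.169). CALM.4.5 was called lower (-1.02 ± 0.27, adjusted p = 0.0269, and 0.433 without F1), and the CALM sum was not called (-0.14 ± 0.07, adjusted p = 0.285). The calls of CALM.4.5 and CALMB.3.3 ended without any 1 of 5 and of 6 libraries (adjusted p up to 0.148 without ZnSO4 replicate 1 and 0.194 without control replicate 4). In all, 3 of 17 features of the calcium list were called higher and 1 lower (median -0.05), beside 16.7% called in either direction among features with a gene name. FREM2, an extracellular matrix protein of basement membranes, fell, from 3125, 3359.8, 2704 and 4099.6 CPM in controls to 1297, 1507, 1908 and 2392 CPM (-0.92 ± 0.13, adjusted p = 6.58e-05), without overlap.

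Genes of fatty acid metabolism were lower with ZnSO4. Of 8 features tested in this list 7 were called lower and none higher, beside 16.7% called in either direction among features with a gene name. The 7 include 3 ACAC features, and 5 of the list's 6 names were called lower as sums. ECHS1 was not called (0.33). The list's median change was -0.59 in F1, -0.59 in F2 and -0.55 in F3, beside 0.00 in F1, 0.00 in F2 and 0.01 in F3 for all features tested. ACAC, acetyl-CoA carboxylase, makes malonyl-CoA, the first committed step of fatty acid synthesis. ACAC.2.3 had 128, 150.4, 76.1 and 132 CPM in controls and 59.3, 72.35, 24.995 and 27.1 CPM with ZnSO4, and changed by -1.45 ± 0.17 (adjusted p = 4.26e-06). The groups did not overlap, and the fall was larger in F3 than in F1 (-1.08 in F1, -1.61 in F2 and -2.28 in F3, adjusted p for the difference between these sets 2.64e-05).

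CPT1A and CPT1B, the carnitine palmitoyltransferases, admit long-chain fatty acids to mitochondria, and both fell. CPT1A had 32.8, 41.8, 41.6 and 45.6 CPM in controls and 23.2, 27.9, 27.0 and 31.0 CPM with ZnSO4 (-0.57 ± 0.09, adjusted p = 0.000189). CPT1B had 40.6, 49.3, 35.8 and 37.9 CPM in controls and 25.4, 32.4, 24.4 and 26.1 CPM with ZnSO4 (-0.59 ± 0.09, adjusted p = 0.000186). ACSA, acetyl-CoA synthetase, fell from 98.8, 108, 102 and 118 CPM to 78.8, 79.4, 72.4 and 85.3 CPM (-0.43 ± 0.07, adjusted p = 0.000115). All exposed libraries lay below all controls for these 3 genes, as they did for 1.16% of all features tested, while 8.11% of all lay lower within every set. ACADSB, an acyl-CoA dehydrogenase, was called lower too (-0.27 ± 0.07, adjusted p = 0.0289), but not without any 1 of 5 libraries (up to 0.122 without control replicate 2) nor without F1 (-0.32, adjusted p = 0.147).

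Of 22 features of oxidative phosphorylation tested, 1 was called, a share near the 5.42% of all features tested, with a list median of 0.04. It was NDUFS7, a subunit of complex I, with 69.9, 75.9, 287 and 84.6 CPM in controls and 40.8, 42.3, 205 and 83.6 CPM with ZnSO4 (-0.52 ± 0.12, adjusted p = 0.00713). The F2 libraries were several-fold above the rest in both groups, and its change was -0.81 in F1, -0.48 in F2 and -0.02 in F3. It was not called without F1 (-0.25, adjusted p = 0.287). The similarly named NDUS7 of the same list was not called over the sets (0.01, adjusted p = 0.973). None of 13 ribosomal protein features was called by edgeR (1 at an unadjusted p under 0.05, 0 by DESeq2, range 0.02 to 0.21), 1 of 7 cell cycle features was (DUT, the enzyme that breaks down dUTP, 0.36 ± 0.07, adjusted p = 0.00336, and without F1 0.26, adjusted p = 0.272).

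Of 52 features of cilia and tubulin, 8 fell and 1 rose (median -0.14), a share near the 16.7% called among all features with a gene name. The 8 were all tubulins, the subunits of microtubules. TBA1.6.12 had 19.8, 23.2, 30.1 and 21.9 CPM in controls and 7.90, 7.92, 23.8 and 18.1 CPM with ZnSO4 (-0.80 ± 0.17, adjusted p = 0.00334), and its fall was larger in F1 than in F2 or F3 (-1.44 in F1, -0.34 in F2 and -0.28 in F3, adjusted p of these differences 0.000642 and 0.000471). TBB1.1.2 had 34.0, 34.8, 41.5 and 36.4 CPM in controls and 26.3, 23.4, 35.5 and 25.9 CPM with ZnSO4 (-0.41 ± 0.09, adjusted p = 0.00857). TBA2, TBB2A, TBB4 and TBB4B.2.3 changed by -0.31 to -0.44, and each call ended without any 1 of 5 or 6 libraries (adjusted p up to 0.196 without ZnSO4 replicate 4). The remaining calls were TBA1.3.12 (-1.01 ± 0.19, 0.00121) and the scarce TBA.3.4, with 0.302, 0.269, 0.105 and 3.53 CPM in controls and 0.0975, 0.106, 0.185 and 0.610 CPM with ZnSO4 and an adjusted p of up to 0.397 without ZnSO4 replicate 4. None of the 8 was called without F1, among them TBA1.3.12 (-0.65, adjusted p = 0.107), TBA1.6.12 (-0.32, adjusted p = 0.189) and TBB1.1.2 (-0.35, adjusted p = 0.134).

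The sum of the 12 TBA1 features, which holds most tubulin counts, was not called (-0.19 ± 0.08, adjusted p = 0.22), while that of TBB1 was (-0.39 ± 0.09, 0.00762). Dynein features of ciliary motors were not called over the sets, except the light chain DYNLRB2 (0.39 ± 0.12, adjusted p = 0.0487, up to 0.196 without ZnSO4 replicate 2, and without F1 0.03, adjusted p = 0.951). The heavy chain DYHC2, picked after its values were seen, rose within F1 (0.47, adjusted p = 0.00156) and changed by -0.30 in F2 and -0.27 in F3. In all, 16 of the 52 features differed between sets.

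Some called features outside the lists and the naming rule are given here, picked after their values were seen. ERD22, a receptor that returns chaperones to the endoplasmic reticulum, fell by 0.32 ± 0.05 on the log2 scale (adjusted p = 0.000365), and POFUT1.2.2, which adds fucose to proteins such as Notch, by 0.53 ± 0.11 (0.00461). The smaller falls of MOGS, TM9S1 and OST4.4.7 (-0.20 to -0.36) ended without any 1 of 5 or 6 libraries (adjusted p up to 0.213 without ZnSO4 replicate 1). In the ubiquitin list, 2 of 5 features rose. UBE2N, a ubiquitin-conjugating enzyme, rose by 0.33 ± 0.06 (adjusted p = 0.00184). Without F1 neither UBE2N (0.33, adjusted p = 0.0573), POFUT1.2.2 (-0.51, adjusted p = 0.0735) nor the 3 smaller falls were called. Among the largest named changes, ANO7, an anoctamin, fell from 46.6, 44.0, 59.5 and 55.0 CPM to 29.6, 32.7, 38.4 and 26.3 CPM (-0.68 ± 0.13, adjusted p = 0.00217). EH2 fell by 1.00 on the log2 scale over the sets, and more in F1 than in F3 (-1.42 in F1, -0.74 in F2 and -0.16 in F3, adjusted p of that difference 0.00217), and without F1 it was not called (-0.40, adjusted p = 0.459).

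Counts in the remaining lists stand beside 5.42% called over all features tested and 16.7% over features with a gene name. ABC transporters and other xenobiotic genes had 1 higher and 1 lower of 13, both ABCB4 features (ABCB4.7.7, 1.38 ± 0.35, at up to 2.93 CPM, and ABCB4.4.7, -0.60 ± 0.13). The ABCB4 sum changed by -0.32 ± 0.09 (adjusted p = 0.0336). Zinc finger proteins had 2 higher of 18, ZN782 and ZNF84.3.5, histones 1 lower of 23, the scarce H4.3.3, and iron and heme genes none of 3 by edgeR (0 at an unadjusted p under 0.05, 0 by DESeq2). None of these 5 features was called without F1 (for ABCB4.4.7, -0.21, adjusted p = 0.5), and all but ABCB4.4.7 lost their calls without any 1 of 3 to 6 libraries, with an adjusted p of up to 0.292 without ZnSO4 replicate 4.

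**Figure D4:**
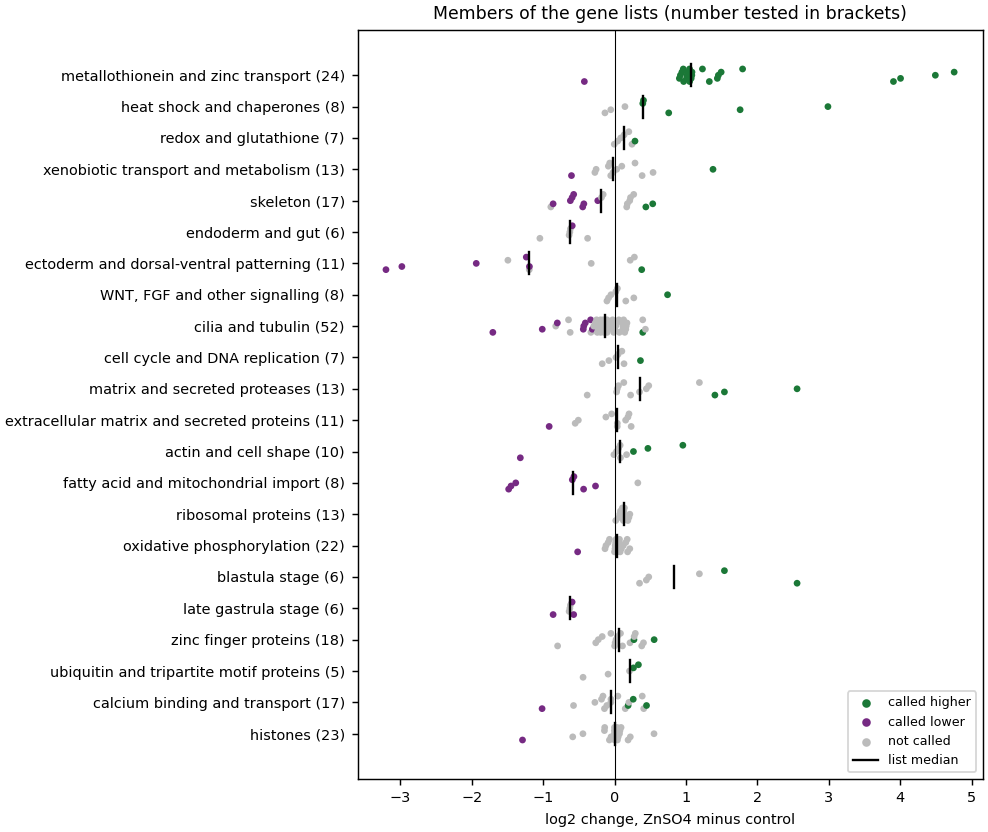
Log2 change with ZnSO4 of each tested member of the gene lists with at least 5 tested members, with calls coloured and the list median as a bar. All MT features lie above 0 and S39AE below it, and the fatty acid, endoderm and late gastrula lists have medians below 0.

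Summing the counts of features that share a gene name gave 52 called of 390 names (13.3%, beside 5.37% of all rows of that table), 18 higher and 34 lower. Of 90 names with 2 or more features, 14 were called as a sum. For 9 names at least 1 feature was called and the sum was not, among them ARS, BP10, ACT1, CALM, TBA and TBA1. No name was called as a sum without a called feature.

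Features that no file pairs with a name held the largest changes. The feature contig_20334 had 0.302, 0.403, 1.65 and 0.993 CPM in controls and 50.3, 44.1, 54.8 and 43.5 CPM with ZnSO4 (5.86 ± 0.24, adjusted p = 4.62e-14), and contig_10271 had 0.867, 0.772, 0.281 and 1.47 CPM and 58.1, 46.8, 17.4 and 30.6 CPM (5.49 ± 0.26, 5.45e-13). In both, every exposed library lay far above every control. The feature contig_50998 fell from 74.6, 76.2, 86.3 and 70.7 CPM to 0.260, 0.355, 6.41 and 2.61 CPM (-5.30 ± 0.55, adjusted p = 8.33e-07), with F1 the lowest, and LOC577625 fell from 8.33, 9.13, 5.68 and 17.6 CPM to 0.195, 0.213, 0.296 and 0.407 CPM (-5.19 ± 0.24, 3.22e-13), without overlap.

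ZnSO4 was also set directly against ZnO particles at the same zinc concentration and against the iron salt. Against ZnO, 49 features were called (0.0779%), 21 higher (0.0334%) and 28 lower (0.0445%) with ZnSO4. This count ranged from 14 to 426 when single control or ZnSO4 libraries were left out, and was 14 without ZnSO4 replicate 1, 22 without replicate 2, 378 without replicate 3, 426 without replicate 4, and 32 without control replicate 1. Without F1 it was 300, and with a replicate block in place of the set term, which leaves out the F1 ZnO library, 277. Named features among the 49 were EVE (-0.67 ± 0.12, adjusted p = 0.0267), NDUFS7 (-0.66 ± 0.12, adjusted p = 0.0383), ANKAT-1.2.2 (2.17 ± 0.41, adjusted p = 0.0366) and TRIM25.

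Of the other features described above, none with a gene name was called between ZnSO4 and ZnO, which does not show that they act alike. The change between them was -0.09 ± 0.19, adjusted p = 0.982, for ACAC.2.3, 0.12 ± 0.11, adjusted p = 0.922, for MMP16, and 0.37 ± 0.17, adjusted p = 0.7, for MT.19.23. The MT features of the larger rise summed to 219.8, 93.2 and 177 CPM in the ZnO libraries of F1, F2 and F3, below the ZnSO4 libraries of the same set each time. They were chosen by their rise with ZnSO4, which favours high ZnSO4 values. The 19 other MT features summed to 11168, 8558 and 12415 CPM with ZnO. The F1 value lay between the F1 ZnSO4 libraries (11185 and 10524 CPM), and the others lay below ZnSO4 in F2 (11687 CPM) and F3 (12461 CPM). CHRD had 79.1, 322 and 116 CPM with ZnO, and its difference from ZnSO4 was not called (-2.18 ± 0.55, adjusted p = 0.146).

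Genes whose ZnSO4 effect differed between sets were also measured with ZnO. BLIMP1KROX had 444, 454 and 574 CPM with ZnO in F1, F2 and F3, so the single F1 ZnO library lay within the range of the controls and above the F1 ZnSO4 pair. HSP74.1.2 had 2.19, 0.363 and 0.395 CPM with ZnO. ANKAT-1.1.2 had 12.4, 11.9 and 9.45 CPM with ZnO, low in all sets, whereas ZnSO4 was low in F2 and F3. Over the sets, none of these was called against ZnO (-0.85 ± 0.42, adjusted p = 0.737, for BLIMP1KROX, 3.22 ± 0.67, adjusted p = 0.0663, for HSP74.1.2, and 1.43 ± 0.56, adjusted p = 0.572, for ANKAT-1.1.2), and the difference within F1, with 1 ZnO library, was not tested.

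Against FeCl3, 3292 features were called (5.24%), 1489 higher (2.37%) and 1803 lower (2.87%) with ZnSO4, and 1672 without F1. This contrast has its own reference libraries but shares the ZnSO4 libraries with that against controls. ACTG1 differed by 1.09 ± 0.12, adjusted p = 3.16e-06, CHRD by -3.21 ± 0.56, adjusted p = 0.000621, ACAC.2.3 by -1.32 ± 0.17, adjusted p = 1.52e-05, and SM30A.1.2 by -0.83 ± 0.13, adjusted p = 0.000164. MT.19.23 differed by 3.29 ± 0.19, adjusted p = 2.5e-11, and by 4.76 against controls. The MT features of the larger rise summed to 34.4, 33.02, 17.3 and 38.95 CPM with FeCl3, above the controls of the same set in each case. They were chosen by a contrast with these controls, which favours low control values. The 19 other MT features summed to 6805, 6765, 5165 and 7640 CPM with FeCl3 and to 5689, 5695, 3767 and 6827 CPM in controls. Whether FeCl3 differs from controls in these features was not tested here.

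**Figure D5:**
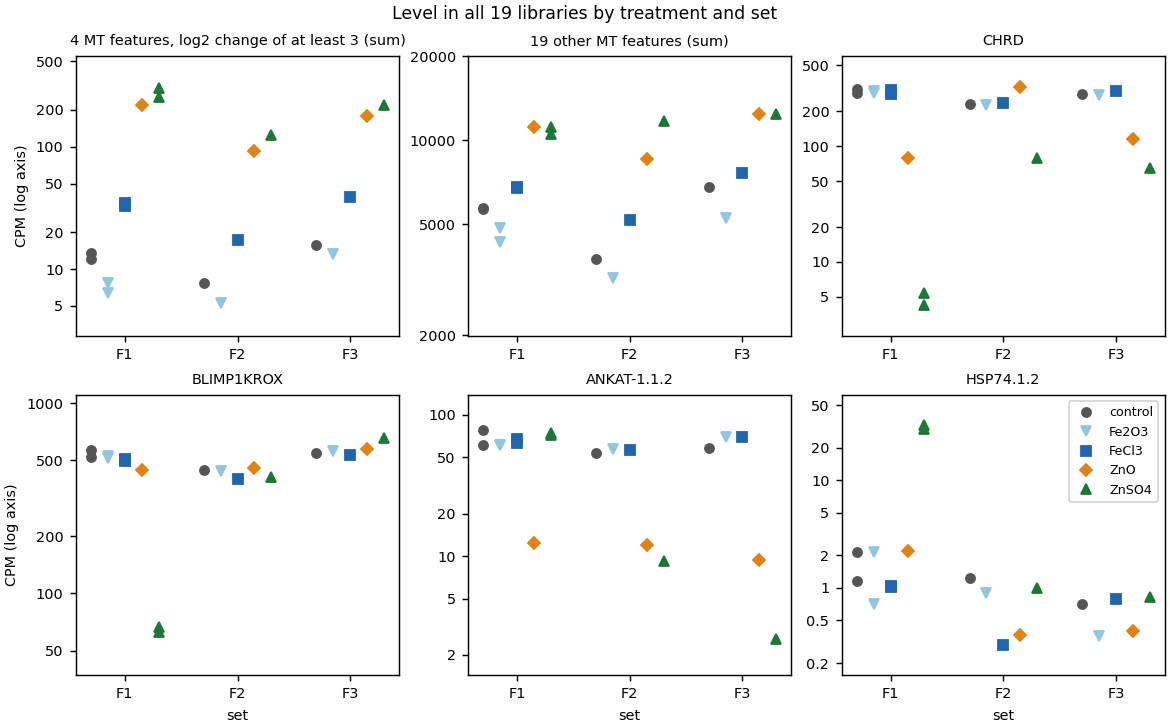
Level in CPM (log axis) in all 19 libraries by set and treatment, 1 point per library, for MT features (summed) and 4 further features. The zinc libraries lie highest for MT in every set, the F1 ZnSO4 pair stands alone in BLIMP1KROX (66.9 and 63.05 CPM) and HSP74.1.2, and ANKAT-1.1.2 is low with ZnO in all sets.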

How the data were processed

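Poly(A) RNA of whole embryos was sequenced in 19 libraries, per the labels' protocols. The authors deposited 1 table of raw counts per feature, without normalization. Tools listed per the submitters' processing notes were SAMtools 1.3.1, BWA 0.7.12-r1039 and Trim Galore 0.4.0. The reference, counter, strand setting and handling of shared reads were not given in the sources used here. Reads of near-identical features or antisense partners may therefore be divided or mixed. Of the features, 576 carried a gene name (391 names), 11343 a LOC identifier, 110 another tag and 51360 were numbered contigs. No genome was used.

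Counts were analysed with edgeR 4.0.16 (quasi-likelihood test, TMM, filterByExpr on treatment) in R 4.3.3, in 1 model with terms for treatment and set over all 19 libraries (12 residual degrees of freedom), with Benjamini-Hochberg adjustment over all features tested. The log2 changes per set come from a model with all set-by-treatment terms. Alternatives were DESeq2 1.42.0, RLE size factors, other filters, no set term, fewer libraries, F1 sums, sets or libraries left out and a replicate block. Scripts were tested on simulated counts. For ZnSO4 against control, 10 of 131 calls there were false. For differences between sets, 24 of 71 were false with all set-by-treatment terms and 9 of 77 with set terms for ZnSO4 only. Few features were changed in the simulated counts, so these shares are no estimate for the real calls. Deviations of control and ZnSO4 from their group means correlated at 0.838 to 0.909 between libraries of the same number, which also share a set, and by 0.0960 between same-numbered libraries within F1, so set was kept as a term and the block is an alternative.

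Named genes were up to 15 features higher and 15 lower by size of change among called features with a gene name, at least 1 in mean log2 CPM (prior count 2) and the same sign in every set, 1 per name. To these were added 2 unnamed features per direction, called list members (for families of over 4, the highest, lowest and most abundant, and for a list with none called up to 3 by smallest p) and up to 10 named features that differ between sets. Other members given were picked after their values were seen. The members and lists were chosen with earlier results of these data known. Some called features are not reported here.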

Additional observations from a re-analysis of the deposited data

Results flagged for a closer look

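In groups of 4 libraries of 1 feature, 1 library lay far from the other 3, by the gap to its nearest neighbour as a share of the range, in 19 of 184 groups examined. Chance flags about 1 in 20 groups of exchangeable libraries, but here 2 of each 4 libraries share F1, so this rate does not hold and set differences alone can set F2 or F3 apart. The F2 control stood apart for WNT2 at 79.7 CPM, HMB1 at 94.3 CPM, ARS.3.5 at 61.3 CPM, HSP72.1.3 at 37.6 CPM, DUOX1.1.2 at 457 CPM and NDUFS7 at 287 CPM. The F3 control stood apart for DYNLRB2 at 81.8 CPM, MT.11.23 at 985 CPM, MT.12.23 at 1102 CPM, TBA.3.4 at 3.53 CPM, RS15A.1.2 at 109 CPM and H4.3.3 at 5.64 CPM. The F2 ZnSO4 library stood apart for MT.19.23 at 12.7 CPM, ARS.3.5 at 7.74 CPM, TBB2A at 54.4 CPM and TBB4 at 83.7 CPM, and the F3 ZnSO4 library for SM30A.1.2 at 25.5 CPM, FGFR.1.3 at 106 CPM and TBA.3.4 at 0.610 CPM. Each of these libraries is the only one of its set and treatment, and an F1 library can hardly be found this way, since its pair lies near it.

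The ZnSO4 effect differed between the sets for 41 of 92 named features, beside 3.75% of all features tested and 15.7% of those with a gene name. The naming rule takes up to 10 features because they differ between sets, which raises this count. The adjusted p of edgeR's quasi-likelihood test with all set-by-treatment terms follows each name in brackets. On simulated counts with few changed features, 24 of 71 calls of this test were false, which is no estimate for the real calls. The effect was largest in size in F1 and lower there for CHRD (6.27e-17), EH2 (0.00425), ABCB4.4.7 (0.00159), EVE (0.000352), TBA1.6.12 (0.000137), BLIMP1KROX (7.19e-17), GATAE (2.17e-11), ENDO16.3.3 (1.55e-10), ENDO16.1.3 (8.2e-10), ENDO16.2.3 (1.96e-09) and ARS.2.5 (1.57e-06). It was largest in F1 and higher there for HSP74.2.2 (1.03e-05), DYNLRB2 (0.00105), HSP72.1.3 (0.000311), HSP72.2.3 (0.000268), HSP72.3.3 (0.00194) and HSP74.1.2 (3.93e-06). It was largest in F2 or F3 and lower there for ACAC.1.3 (7.9e-05), ARC3 (0.00204), ARS.3.5 (3.5e-08), ANKAT-1.1.2 (1.1e-14), NK2.1 (6.4e-06), ANKAT-1.2.2 (0.0358), TBB4B.2.3 (0.00139), ACAC.2.3 (7.18e-05) and ACAC.3.3 (4.8e-05), and higher there for WNT2 (0.00464), MT.11.23 (0.00105), MT.12.23 (0.000412), ERG.1.2 (0.000744) and ERG.2.2 (0.00153). A further 10 features passed this test but not the model with set terms for ZnSO4 only, namely FGFRL1.1.2 (0.0238), HMB1 (0.00042), DLX (2.73e-05), HMX (1.12e-06), FREM2 (0.00107), FGFRL1.2.2 (0.0398), NDUFS7 (0.00134), H4.3.3 (0.0386), contig_20334 (0.00200) and contig_50998 (1.03e-10).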

How the results depend on the processing

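Without F1, 1981 features were called against control, and 33 of the 71 called named features kept their call, while HSP74.1.2 (log2 change -0.0999) and HSP72.2.3 (-0.0671) turned sign. With the F1 libraries summed to 1 per treatment the counts were 1707 features, 38 named features and 28 gene names. Without a set term they were 116, 6 and 3, and 92 features against FeCl3 and 0 against ZnO by edgeR (with 448 at an unadjusted p under 0.05). Without F1, 1672 were called against FeCl3. With only the libraries of the 2 treatments compared, 2297 features, 48 named features and 33 gene names were called against control.

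Leaving out single libraries gave 2288 to 4046 features, 50 to 68 named features and 36 to 66 gene names against control, and 2330 to 4163 against FeCl3, and 45 of 71 named features kept their call each time. The count against ZnO was the least stable, at 191 with DESeq2, 99 with the 2 treatments only, 300 without F1, 83 without F3, and 14 to 426 with single libraries left out. With a replicate block in place of the set term, 3493 features, 66 named features, 50 gene names and 3377 features against FeCl3 were called, and 277 against ZnO (without its F1 library). It ended the calls of DYNLRB2, HSP72.3.3, SM29, TBB4 and CALMB.3.3. Same-numbered F1 libraries showed little common deviation (correlation 0.0960 for control and ZnSO4, the highest of 6 treatment pairs). What the numbers within F1 stand for is not explained, and shared handling was not tested. The number of features whose effect differs between sets ranged from 2330 to 2398. RLE size factors, DESeq2, no filter, a stricter filter and leaving out F2 or F3 kept the counts against control and FeCl3 within 1.5 times. The cause of these changes was not tested. Depth limits scarce features, as shown by the median standard error of 0.436 at a mean log2 CPM of at most 0. Sets F2 and F3 hold 1 library per treatment, so effects within them borrow their spread from F1 and from other features.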
